A study of Mus musculus with 66 samples.

Results

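Of the 94469 regions in the union of peaks from mouse small intestinal organoids, 711 were more open in CV culture than in both other cultures. These regions more open in CV were chosen by their ATAC scores, which measure how accessible the DNA is to a transposase. Every one of the 4 CV libraries had to exceed every one of the 4 ENR and 4 EN libraries, the mean CV score had to reach 10, and the ratio (mean CV + 1)/(mean of the other culture + 1) had to reach 2.5 against both ENR and EN. The choice does not require that a region be closed elsewhere, and 148 members (20.8%) had a mean score of at least 10 in ENR or EN too. ENR is the conventional medium with EGF, Noggin and R-Spondin. CV is ENR with 3 μM CHIR99021, an inhibitor of the kinase GSK3 that activates Wnt signaling, and 1 mM valproic acid, an inhibitor of histone deacetylases, for 5 days, and was used to enrich stem cells. EN is ENR without R-Spondin for 2.5 days, which was used to drive differentiation. CV differs from ENR by both agents, so that the share of each cannot be told apart, and the labels do not say whether libraries of a culture came from separate cultures or animals, so that p-values measure the spread between libraries only. H3K27ac, H3K4me3 and H3K27me3 were measured by ChIPmentation in 3 libraries per culture, RNA in 4 libraries per culture and binding of Hnf4g in 1 library per culture.

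A region of open chromatin is a stretch where nucleosomes have been displaced, usually by transcription factors at a promoter or an enhancer. H3K4me3 is deposited at start sites of active genes, H3K27ac marks active promoters and enhancers, and H3K27me3 is written by the Polycomb complex over genes that are held silent, many of them developmental regulators. Wnt signaling maintains the intestinal stem cells at the crypt base through β-catenin and the Tcf/Lef factors, and histone deacetylases remove the acetyl groups that valproic acid preserves.

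Stretches of 200 bases are shown for 5 members, to let the letters around each member's centre be read beside the values that follow. The sequence is the mm9 reference, plus strand, and none of the stretches overlaps an annotated UTR. Capitals mark letters of known motifs, matched on either strand. In the first Peg3 stretch they mark Yy1 (AANATGGC). In the second they mark Zfp57 (TGCCGC), then Cdx (TTTATGG), then Klf (CCCCACCC). In the intergenic stretch they mark AGATAAG, bound by Gata factors, and AP-1 (TGANTCA) after it. In Rbfox3 they mark Gata, then the cyclic AMP response element, CRE (TGACGTCA). In Cd44 they mark Tcf/Lef (CTTTGAT), then Sox (CATTGTT). The Peg3 and chromosome 1 members are among the 10 with the largest ratio, the Rbfox3 member among the 10 with the largest H3K27ac rise, and the Cd44 member lies at a Wnt target gene.
Peg3 intron, chr7:6680556-6680755: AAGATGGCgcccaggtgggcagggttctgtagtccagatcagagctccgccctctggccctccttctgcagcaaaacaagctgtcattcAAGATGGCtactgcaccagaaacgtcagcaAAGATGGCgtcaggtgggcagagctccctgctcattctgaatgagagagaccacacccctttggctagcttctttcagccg
Peg3 intron, strongest ratio, chr7:6681195-6681394: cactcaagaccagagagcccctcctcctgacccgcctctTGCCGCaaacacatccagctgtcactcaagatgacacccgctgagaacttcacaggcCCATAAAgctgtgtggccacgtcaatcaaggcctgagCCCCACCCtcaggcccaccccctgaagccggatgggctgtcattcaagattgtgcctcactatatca
Intergenic, chromosome 1, chr1:47602594-47602793: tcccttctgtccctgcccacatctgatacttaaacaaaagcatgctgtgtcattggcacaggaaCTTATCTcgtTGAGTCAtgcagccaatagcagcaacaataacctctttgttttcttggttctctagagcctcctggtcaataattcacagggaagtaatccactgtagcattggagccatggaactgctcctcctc
Rbfox3 intron, chr11:118610046-118610245: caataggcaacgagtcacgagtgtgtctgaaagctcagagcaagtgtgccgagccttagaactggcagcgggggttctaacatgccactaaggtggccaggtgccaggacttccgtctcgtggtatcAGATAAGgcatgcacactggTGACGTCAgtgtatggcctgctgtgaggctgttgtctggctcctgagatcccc
Cd44 intron, chr2:102718774-102718973: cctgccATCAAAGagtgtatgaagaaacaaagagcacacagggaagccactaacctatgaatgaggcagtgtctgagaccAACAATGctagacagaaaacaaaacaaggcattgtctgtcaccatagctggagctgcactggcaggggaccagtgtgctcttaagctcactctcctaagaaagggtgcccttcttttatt

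The members had a median ATAC score of 18.0 to 20.0 in the CV libraries, 4.0 to 5.0 in the ENR libraries and 3.0 to 4.0 in the EN libraries. These values were set by the choice of the members and are given as a description, without a test. Together the 711 regions took 1.07 to 1.13% of the summed ATAC score of each CV library, 0.249 to 0.293% in ENR and 0.175 to 0.208% in EN. The median region had a mean CV score of 19.2, and the ratio to the larger of the other means ran from 2.5 to 19 with a median of 3.19. In 81 regions that ratio reached 5, and in 4 it reached 10. The mean was higher in ENR than in EN in 534 regions and lower in 143. Most members were therefore low rather than empty in the other cultures, and only 113 had a mean under 3 in both.

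**Figure D1:**
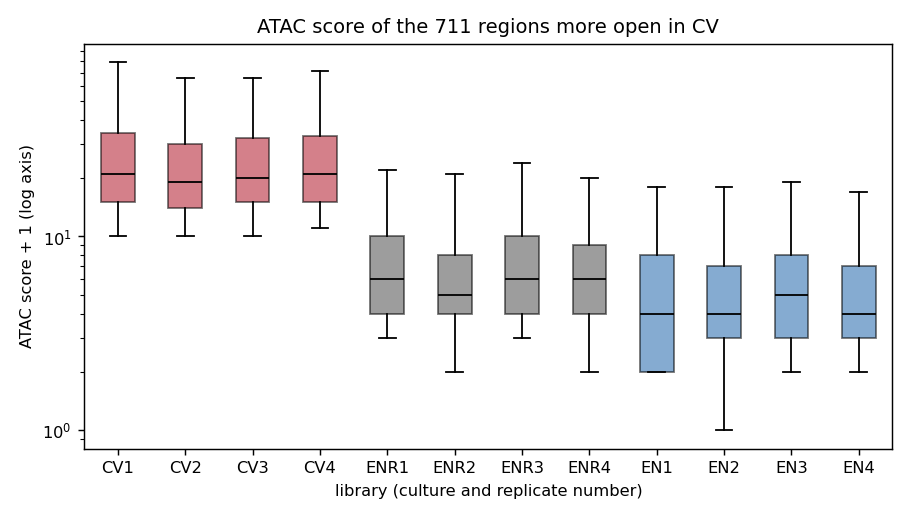
ATAC score plus 1 of the 711 members in each of the 12 libraries, on a log axis. Boxes span the quartiles with the median as a line, and whiskers run from the 5th to the 95th percentile. The CV medians of 18.0 to 20.0 stand above those of ENR and EN, as the choice of the members requires.

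The largest ratio belonged to chr7:6680915-6681673 in an intron of Peg3, the paternally expressed gene for a zinc finger protein. It scored 101, 132, 103 and 97 in CV, 6, 3, 4 and 6 in ENR and 3, 2, 8 and 4 in EN, a ratio of 19. The other ratios above 10 were at chr1:47602409-47602977, 692 kb from the nearest coding start site (69, 54, 71 and 66 in CV against 3 to 7 in ENR and 1 to 5 in EN, ratio 11.5), and at the start site of Snap25, which encodes a protein of synaptic vesicle fusion (37, 34, 36 and 42 in CV against 2 to 3 in ENR and 1 to 5 in EN, ratio 10.9). The last was chr14:22807516-22807785, 566 bp upstream of the nearest annotated start site of Zfp503 and within an intron of the annotated gene, a zinc finger repressor, with 54, 37, 29 and 40 in CV, at most 4 in ENR and at most 2 in EN. The highest CV scores were elsewhere. At chr7:6315097-6316725, 8.16 kb upstream of Zfp78, the CV libraries scored 503, 415, 489 and 508, the ENR libraries 78, 86, 158 and 100 and the EN libraries 106, 73, 129 and 103. The start sites of Vcan (170 to 256 in CV) and Schip1 (171 to 218), and distal regions 124 kb from Kcnh8 (161 to 241) and 135 kb from Klf12 (172 to 214) followed. Just inside the ratio of 2.5 lay the start sites of Tpbg (11 to 16 in CV, 3 to 7 in ENR) and Spnb2 (47 to 60 in CV, 18 to 23 in ENR), both at 2.5. Just outside lay the start site of 1600027N09Rik at 2.4933 (45 to 47 in CV, 13 to 21 in the other cultures) and a region 142 kb from Rgma at 2.4848 (12 to 28 in CV, 3 to 9 in the other cultures).

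Of the 711 regions, 344 (48.4%) were intergenic, 222 (31.2%) intronic, 131 (18.4%) within 500 bp of an annotated start site, 11 in coding exons and 3 in UTRs. Start sites held 16.9% of all regions, 34.2% of the 32043 regions with a mean CV score of at least 10, 6.89% of the 1146 regions higher in CV and ENR than in EN, and 5.38% of the 818 regions higher in ENR and EN than in CV, both chosen with the same limits. The regions more open in CV were thus more often at start sites than the other changed groups and less often than open regions at large, and these shares are descriptions. Their median length was 341 bp and their median GC content 49.7%, against 220 bp and 49.0% for all regions. For the regions with a mean CV score of at least 10 these medians were 522 bp and 52.7%. In the group higher in CV and ENR they were 410 bp and 48.3%, and in that higher in ENR and EN 379 bp and 47.7%.

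The members fell into 656 loci when regions less than 10 kb apart were joined, and 48 of the loci held more than 1 member. The largest held 4. At Peg3 the 4 members stood within 2.76 kb, from the start site into the gene. At Zfp503 they stood within 9.68 kb, at the start site, in a coding exon and upstream. Loci of 3 members lay at Nr2f1, which encodes a nuclear receptor, beside the noncoding Gm17547, whose nearest coding gene is Mef2c, and at Adamts1, which encodes a secreted metalloprotease. Of 599 coding genes whose start site was nearest to a member, 91 were nearest to more than 1, led by Schip1 with 5.

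H3K27ac was higher in CV across the members. They took 0.466 to 0.491% of the summed H3K27ac score in the CV libraries, 0.157 to 0.203% in ENR and 0.128 to 0.177% in EN, without overlap. The median difference in mean log2(score + 1), with 3 libraries per culture, was 1.00 for CV minus ENR and 0.90 for CV minus EN, against 0.33 and 0.14 over all regions. With a pseudocount of 5 these medians were 0.53 and 0.47 (all regions: 0.17 and 0.06). With quantile normalization they were 0.56 and 0.71 (all regions: 0.01 and 0.02). In the regions higher in CV and ENR than in EN, the medians were 0.35 and 0.87. Against EN the members' median was thus near that of this group. Single members were called in limma's moderated test over all regions at an adjusted p under 0.05. Against ENR, 31 members rose (all regions tested: 0.541%) and 0 fell (all regions tested: 1.29%). Against EN, 74 rose (all regions tested: 1.96%) and 0 fell (all regions tested: 5.07%). At an unadjusted p under 0.05 in limma, 240 rose (all regions tested: 11.1%) and 0 fell (4.96%) against ENR, and 222 rose (9.04%) and 0 fell (11.0%) against EN. Called at the adjusted p, 13.5% of the regions higher in CV and ENR than in EN rose against EN, more than the 10.4% of members. Against ENR 0.785% of that group rose, against 4.36% of members. In 155 members, 21.8%, every CV library exceeded every ENR and EN library, against 3.85% of all regions. The count against ENR was 7 to 18 when CV4, CV5 or any library of ENR or EN was left out, and that against EN was 42, 30, 36, 21 and 29 without CV4, CV5, EN2, EN3 and EN4. With no trend of the spread on the mean, 0 members were called against ENR (251 rose at an unadjusted p under 0.05 in limma) and 17 against EN. With quantile normalization the counts were 7 and 47, and each member called in limma kept its direction.

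**Figure D2:**
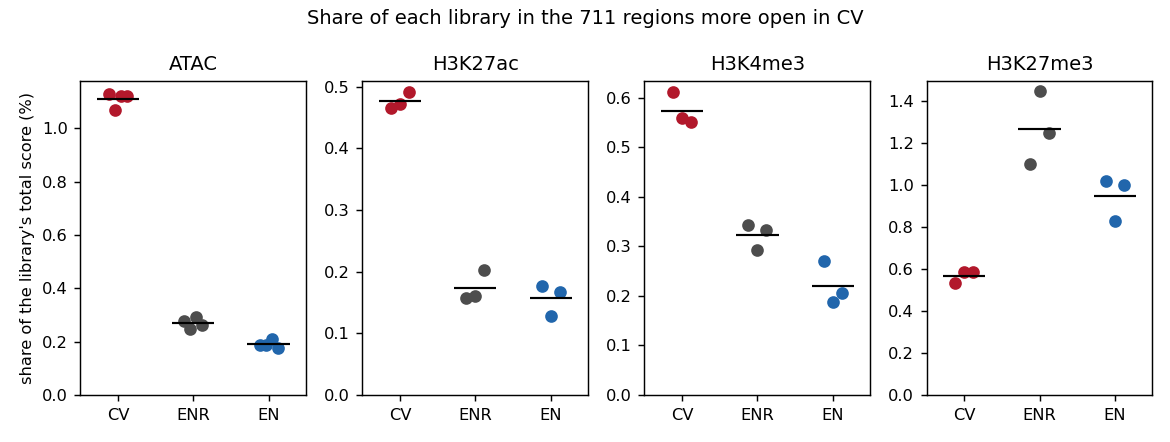
Share of each library's summed score, in percent, that fell in the 711 members, for ATAC and the 3 histone marks. Points are libraries and bars are their mean in each culture. CV stands above ENR and EN for ATAC, H3K27ac (0.466 to 0.491% in CV) and H3K4me3 (0.552 to 0.613%), and below them for H3K27me3 (0.534 to 0.585%).

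The 10 members with the largest H3K27ac rise over ENR among those called against both cultures lay at genes of differing kinds. The start site of Zic2, a developmental zinc finger factor, scored 44, 21 and 23 in CV, 1, 2 and 4 in ENR and 2, 2 and 2 in EN, a log2 difference of 3.21 from ENR (SE 0.60, adjusted p = 0.0024 in limma) and 3.26 from EN (adjusted p = 0.00052). No ENR or EN library reached 5 there. The Peg3 intron with the largest ATAC ratio scored 23, 17 and 17 in CV, 1, 3 and 1 in ENR and 5, 5 and 3 in EN, a difference of 2.97 from ENR (adjusted p = 0.0045 in limma). The start site of Hspb1, a small heat shock protein, scored 34, 17 and 11 in CV and 1 to 4 in every other library (2.57 from ENR, adjusted p = 0.022 in limma). Others were start sites of 2610019F03Rik, of Trim2, a ubiquitin ligase, and of the noncoding Gm15222 inside Bmp4, regions near Plk2 and Slc9a9, and an intron of Rbfox3, a neuronal splicing factor, with differences of 2.59 to 3.02 from ENR. In the Rbfox3 intron with the CRE letters, the CV libraries scored 9, 12 and 19 and the others 1 to 3.

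H3K4me3, the mark of start sites, was also higher in CV. The members took 0.552 to 0.613% of the summed score in CV libraries, 0.292 to 0.343% in ENR and 0.187 to 0.270% in EN. Of the 711 members, 668 had enough libraries above 0 to be tested and 43 did not. Over these 668 the median difference in mean log2(score + 1) was 0.86 for CV minus ENR and 0.53 for CV minus EN. Over all regions tested it was 0.33 and -0.09. In the regions higher in CV and ENR than in EN it was 0.64 and 0.47. Against EN the members' median was thus near that of this group. Away from start sites the medians against EN were 0.33 in members and 0.44 in this group. Against ENR, 56 members rose (all regions tested: 1.10%) and 0 fell (all regions tested: 0.0270%). Against EN, 99 rose (all regions tested: 2.15%) and 1 fell (all regions tested: 2.75%), an intronic region of Sema3a with scores of 0 or 1 in every library. At an unadjusted p under 0.05 in limma, 321 rose (all regions tested: 15.3%) and 0 fell (1.48%) against ENR, and 241 rose (8.71%) and 14 fell (11.7%) against EN. Of the 56, 29 had no library at a score of 5 or more, as had 7 of the 99. At the adjusted p, 1.49% of the regions higher in CV and ENR than in EN rose against ENR and 4.83% against EN. The shares of members tested were 8.38% and 14.8%. In 150 members, 21.1%, every CV library was above every other, against 3.00% of all regions. Of the 131 start-site members 64 were called higher than in EN (48.9%, all start-site regions tested: 5.38%), and of the 537 elsewhere 35 (6.52%, all regions elsewhere: 1.34%). With quantile normalization 7 members were called against ENR. Without ENR4 no member was called against ENR, and the count was 22, 15, 34 and 31 without ENR1, ENR2, CV3 and CV4 and 110 and 98 without EN1 and EN4. Against EN it was 61 without CV4 and 30 without EN2.

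H3K27me3, the Polycomb mark, was lower in CV. The members took 0.534 to 0.585% of the summed score in the CV libraries, 1.10 to 1.45% in ENR and 0.827 to 1.02% in EN, again without overlap. The median difference in mean log2(score + 1) was -0.34 for CV minus ENR and -0.58 for CV minus EN, while that over all regions was 0.32 and -0.15. With a pseudocount of 5 it was -0.22 and -0.37 (all regions: 0.19 and -0.10). With quantile normalization it was -0.60 and -0.46 (all regions: 0.01 and 0.01), and against ENR without CV1 it was -0.22. In the regions higher in CV and ENR than in EN, the median was 0.24 for CV minus ENR and -0.55 for CV minus EN. Against EN the members' median was thus near that of this group. Of this group 0.0873% were called lower than in EN, against 3.09% of members. Against ENR, 65 members fell (all regions tested: 0.532%), and against EN, 22 fell (all regions tested: 0.140%). No member rose against ENR (all regions tested: 0.207%) or against EN (all regions tested: 0.388%). At an unadjusted p under 0.05 in limma, 162 fell (all regions tested: 3.1%) and 29 rose (7.55%) against ENR, and 142 fell (5.09%) and 6 rose (3.99%) against EN. With no trend of the spread on the mean, 19 fell against ENR and 0 against EN (126 against EN at an unadjusted p under 0.05 in limma). In 84 members, 11.8%, every CV library was below every other, against 1.31% of all regions. Leaving out ENR3 or ENR4 gave 27 and 38 members against ENR, and leaving out CV1, CV2, CV3, EN1 or EN4 gave 11, 7, 12, 10 and 4 against EN.

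The H3K27me3 falls lay both at start sites and elsewhere. Peaks were extended to 1000 bp for this mark, so close members can share signal and their falls are not independent. The Zfp503 member 566 bp from the start site, counted as elsewhere, scored 67, 49 and 56 in ENR. The Zfp503 start-site member scored 53, 51 and 53. Against ENR, 31 of the 131 start-site members fell (23.7%, all start-site regions: 1.57%) and 34 of the other 580 (5.86%, all regions elsewhere: 0.322%), with median log2 differences of -1.36 and -0.17. Against EN, 6 fell at start sites (4.58%, all start-site regions: 0.289%) and 16 elsewhere (2.76%, all regions elsewhere: 0.110%), with medians of -0.71 and -0.54. Of the 84 members with every CV library below every other, 33 were at start sites. A mean H3K27me3 score of at least 20, a limit set after the values were seen, was reached by 92 of the 131 start-site members in ENR (70.2%), by 75 in EN (57.3%) and by 37 in CV (28.2%). Over all 15930 start-site regions the shares were 18.1%, 15.0% and 12.8%, and over the 10962 start-site regions with a mean CV ATAC score of at least 10 they were 9.74%, 8.12% and 4.52%. Away from start sites, 16.4% of the 580 members reached it in ENR, 15.7% in EN and 4.31% in CV. Over all regions elsewhere the shares were 7.66%, 8.04% and 9.34%. At the start-site members the median of the mean scores was 33.7 in ENR, 22.7 in EN and 11.0 in CV for H3K27me3, and 7.33, 4.67 and 17.0 for H3K4me3. By comparison, the median over all start-site regions was 30.0, 29.0 and 32.0 for H3K4me3. In ENR and EN the start-site members thus had more H3K27me3 and less H3K4me3 than start sites at large, with no test of this difference. In the comparison with ENR, 15 of the 131 rose in H3K4me3 (11.5%, all start-site regions tested: 0.811%) and 13 rose in H3K27ac (9.92%, all start-site regions tested: 0.773%).

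**Figure D3:**
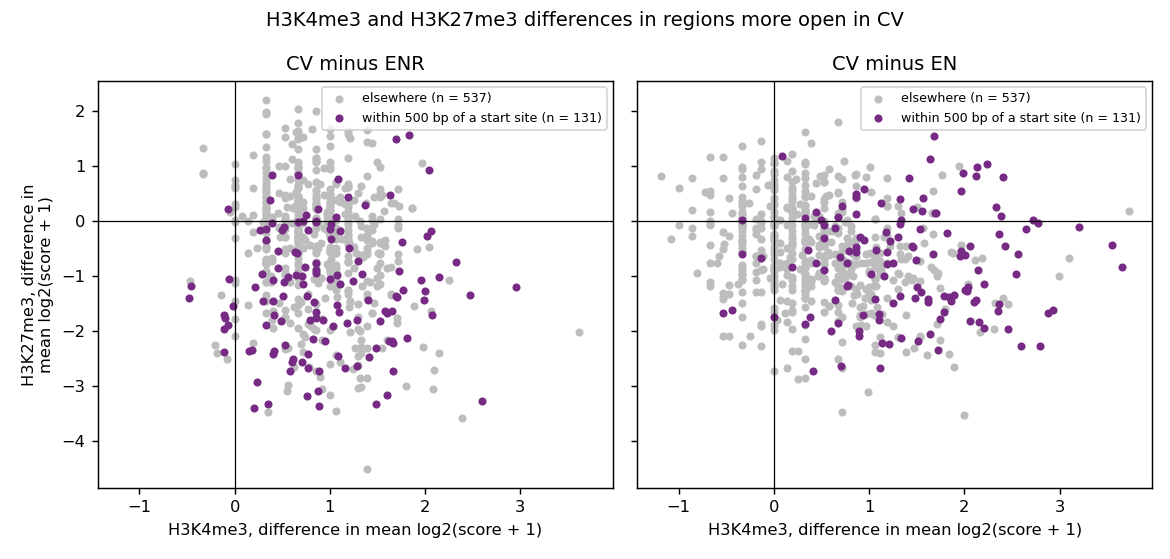
Difference in mean log2(score + 1) of H3K4me3 (horizontal) and H3K27me3 (vertical) between CV and ENR (left) and between CV and EN (right), 1 point per member tested for H3K4me3. Start-site members (n = 131) lie mostly to the right of 0 and below 0, with a median H3K27me3 difference of -1.36 from ENR, against -0.17 for the other members.

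All 3 marks changed in 12 members (1.69%, all regions: 44 of 94469, 0.0466%), with H3K27ac and H3K4me3 higher and H3K27me3 lower in CV than in at least 1 other culture, and 10 of these were at start sites. The 12 were at Zfp503, Hoxc6, Lifr, Adamts1, Mir99b, Prr5l, Rtn4rl2, Chrm4, Schip1, 2610019F03Rik, Pde4a and Plod2. Their mean H3K27me3 score was 48.3 to 136.0 in ENR and 6.67 to 25.7 in CV. Their mean H3K27ac score was at least 14.3 in CV and at most 13.7 in the other cultures. At the start site of Hoxc6, a homeobox gene of body patterning, H3K27me3 was 75, 82 and 88 in ENR, 38, 26 and 64 in EN and 11, 2 and 16 in CV, a log2 difference of -3.28 from ENR (adjusted p = 4.8e-05 in limma). H3K4me3 was 31, 44 and 41 in CV and 4 to 8 in every other library, and H3K27ac 20, 45 and 34 against 2 to 13. At Lifr, the receptor of leukemia inhibitory factor, H3K27me3 was 7, 8 and 6 in CV, 47, 75 and 23 in ENR and 30, 26 and 19 in EN, while H3K4me3 was 51, 38 and 46 in CV, 20, 15 and 14 in ENR and 4, 5 and 7 in EN. The libraries of CV overlapped no other at either gene in any of the 3 marks. In 500 members (70.3%), 48 of them at start sites, no mark was called in these directions. The same count was not made over all regions.

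The locus of Adamts1 showed the Polycomb difference over several members. At its start site (chr16:85803230-85803587) H3K27me3 was 3, 1 and 16 in CV, 39, 80 and 42 in ENR and 12, 22 and 19 in EN, and at a member upstream of it (chr16:85804668-85804768) it was 2, 7 and 16, then 28, 54 and 95, then 34, 58 and 50. The difference from ENR was -3.33 (adjusted p = 0.00042 in limma) and -2.85 (adjusted p = 0.0014). EN overlapped CV at the start site and not upstream of it. At the Zfp503 start site H3K27me3 was 21, 8 and 2 in CV, 51 to 53 in ENR and 45, 18 and 37 in EN. CV and EN overlapped there, and their difference did not pass the test (adjusted p = 0.13 in limma). H3K4me3 was 23, 24 and 14 in CV, 7 to 9 in ENR and 2 to 9 in EN.

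At Peg3, by contrast, the H3K27me3 values of CV overlapped those of the other cultures at all 4 members. At chr7:6680512-6680852, the member with the 3 Yy1 matches, the ATAC libraries scored 22, 30, 20 and 20 in CV and 1 to 3 in every other library, while H3K27me3 was 6, 16 and 15 in CV, 11, 11 and 6 in ENR and 4, 32 and 4 in EN. H3K27ac there was at most 5 in every library. The first intron of Peg3 is known for an array of Yy1 sites within the region that is methylated on the maternal allele. The Yy1 letters were searched after the sequence had been seen. They occurred in 4.08% of members and 4.55% of all 94334 regions with a sequence, and 3 or more copies occurred in 5 regions, of which this was the only member.

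RNA was compared for the coding gene with the start site nearest to each member. The RNA table held 206 of the 599 genes, because its index covered only transcripts with a quantified protein, and 219 of their transcripts were tested. In these bulk libraries, fewer cells of a type and less RNA per cell cannot be told apart. Against ENR, edgeR's quasi-likelihood test at an adjusted p under 0.01 called 112 transcripts higher in CV, 51.1% (all transcripts tested: 30.2%), and 42 lower, 19.2% (all transcripts tested: 29.8%). Against EN it called 124 higher, 56.6% (all transcripts tested: 41.2%), and 59 lower, 26.9% (all transcripts tested: 35.2%). In 88 transcripts, 40.2%, every CV library was above every other (all transcripts tested: 20.8%), and in 25, 11.4%, below (all transcripts tested: 17.9%). For the regions higher in CV and ENR than in EN, 32.9% of 532 transcripts were higher in CV than in ENR and 28.9% lower. Against EN, 51.9% of these 532 were higher in CV and 29.5% lower, near the shares for the members. For the regions higher in ENR and EN than in CV, 21.3% of 362 transcripts were higher in CV than in ENR and 45.3% lower. Against EN, 22.4% of these 362 were higher in CV and 57.5% lower. Scaled to the ERCC spike-ins, 73 were higher and 32 lower than in ENR, and 132 higher and 21 lower than in EN, where that scaling moved the median of all transcripts from 0.08 to 0.49.

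Genes with a member within 500 bp of their start site, where measured, were mostly higher in CV. Of 119 such genes, 27 were in the RNA table with 28 transcripts. The paper kept a protein if every triplicate of 1 sample type held it, so a gene high only in CV could enter through CV. The shares that follow thus hold for the measured genes only. Of the 28 transcripts, 23 were higher in CV than in ENR (82.1%, all transcripts tested: 30.2%) and 4 lower (14.3%, all transcripts tested: 29.8%). Against EN, 22 were higher (78.6%, all transcripts tested: 41.2%) and 4 lower (14.3%, all transcripts tested: 35.2%). The median log2 differences were 2.82 and 4.07, against -0.01 and 0.08 over all transcripts tested. Genes whose member was called lower in H3K27me3 than in at least 1 culture had 12 transcripts tested, of which 9 were higher than in ENR and 11 higher than in EN, with medians of 2.84 and 3.78. Among the exceptions, named after their values were seen, Jakmip1 and Trim2 were lower than in both and Tpbg was lower than in EN, while Acss3 was not called against ENR and Peg3 not against EN. Against EN with spike-in scaling the difference of Jakmip1 was 0.05, that is of the opposite sign. Trim2 had 192 ± 4.47 CPM (SD, n = 4) in CV, 296 ± 9.49 in ENR and 357 ± 24.7 in EN, although H3K27ac at the member over its start site was 40, 45 and 34 in CV, 5, 4 and 7 in ENR and 13, 2 and 11 in EN.

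**Figure D4:**
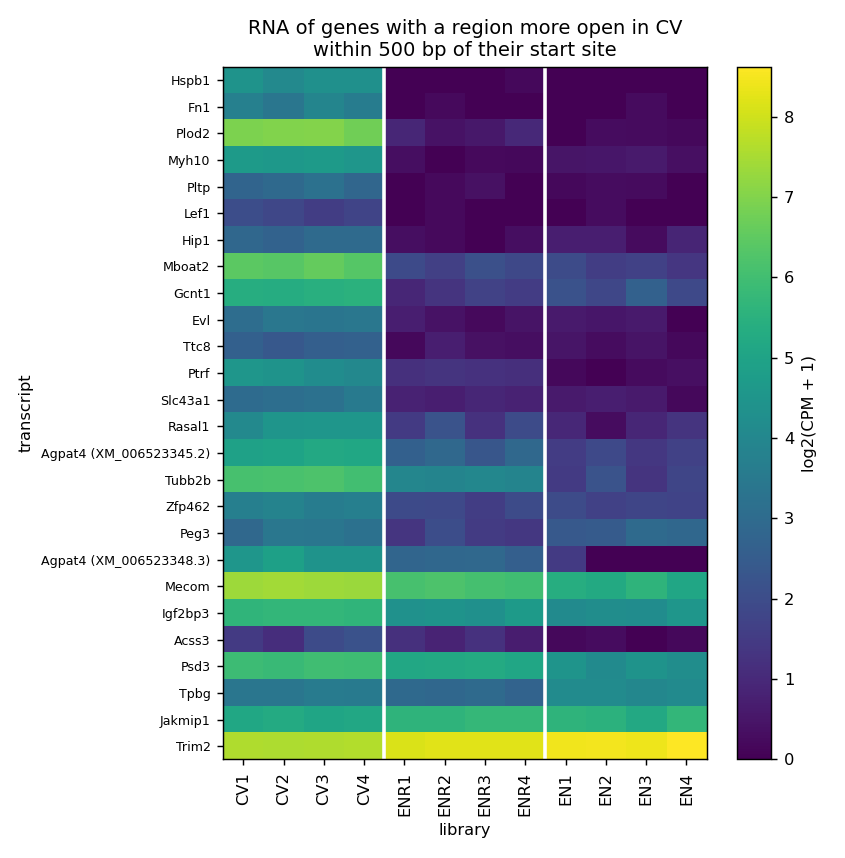
RNA level, as log2(CPM + 1), of 26 of the 28 transcripts of genes with a member within 500 bp of their start site in the 12 libraries, ordered by the difference between CV and ENR. The transcripts from Hspb1 to Hip1 at the top are near 0 in ENR and EN, and Jakmip1 and Trim2 at the bottom are lower in CV than in ENR.

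Among all genes nearest to a member, the largest rises were mostly in genes with few counts in ENR and EN. Hspb1 had 15.8 to 20.6 CPM in CV, from 118 to 158 counts, 1 count in 1 ENR library and none in the other ENR and EN libraries. Fn1, the extracellular protein fibronectin, had 70 to 106 counts in the CV libraries and at most 1 in any other. Plod2, which hydroxylates collagen lysines, had 120, 125, 129 and 107 CPM in CV and 0.896, 0.327, 0.456 and 1.01 in ENR, a log2 difference of 7.38 (SE 0.15, adjusted p = 2.2e-14 in edgeR), and at most 1 count in EN. At its start site H3K27me3 was 11 to 12 in CV, 33, 65 and 79 in ENR and 53, 26 and 29 in EN. Mboat2, a lipid acyltransferase, had 85.8 ± 6.36 CPM in CV, 2.73 ± 0.50 in ENR and 2.15 ± 0.579 in EN (4.96 and 5.28 on the log2 scale, adjusted p = 6.8e-14 and 6e-15 in edgeR). Myh10, a nonmuscle myosin chain, had 23.8 ± 1.27 CPM in CV and at most 3 counts in any other library. Lef1, a Wnt target and itself a factor that binds Tcf/Lef letters, had 3.1, 2.54, 1.99 and 2.41 CPM in CV and at most 1 count in any other library. The region at the Lef1 start site scored 11 to 19 in ATAC in CV, 3 to 4 in ENR and 2 to 5 in EN, and its H3K27me3 was 12, 11 and 11 in CV, 67, 74 and 75 in ENR and 50, 14 and 46 in EN (difference from ENR -2.56, adjusted p = 0.0045 in limma). Pltp, Hip1, Dpysl3 and the basement membrane protein Nid1 completed the 10 largest rises. Hip1 had 5.61 to 6.89 CPM in CV and at most 0.256 in ENR, and Dpysl3 21.5 to 25.7 CPM in CV, 0.654 to 0.881 in ENR and 5.23 to 8.93 in EN.

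The largest falls were at genes with a distal member. Pck1, an enzyme of gluconeogenesis, had 0.588 ± 0.180 CPM in CV, 8.12 ± 1.98 in ENR and 89.4 ± 8.09 in EN, with a member 18.6 kb from its start site. The peptide genes Nts (0.918 CPM in CV, 6.72 in ENR, 27.1 in EN) and Scg2 (1.05, 7.65 and 28.5), Fbln2 and Vim completed the 5. Vim, an intermediate filament of mesenchymal cells, had a member in an intron that scored 7 to 12 in CV, 2 to 4 in ENR and 1 to 3 in EN, yet its RNA was 2.96 ± 0.309 CPM in CV, 7.96 ± 0.665 in ENR and 23.3 ± 3.11 in EN. Its H3K27me3 there was 25, 3 and 18 in CV against 42 to 54 in ENR, which did not pass the test (adjusted p = 0.080 in limma). For Peg3, 1 transcript was measured, with 8.45 ± 1.48 CPM in CV, 2.03 ± 0.732 in ENR (log2 difference 2.08, adjusted p = 2.6e-06 in edgeR) and 5.52 ± 1.33 in EN (0.61, adjusted p = 0.019). Tubb2b, with 68.6 ± 3.67 CPM in CV and 14.3 ± 0.492 in ENR, has close paralogs, so that its counts are uncertain.

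Since several of the risen genes are also expressed by mesenchymal cells, markers of fibroblasts, muscle, endothelium and blood were read in the same libraries. Of 13 such markers, 8 were in the RNA table. Summed, they came to 6.12 to 9.64 CPM in CV, 9.45 to 10.7 in ENR and 20.0 to 24.6 in EN, and without Vim to 2.72 to 5.88, 1.31 to 1.78 and 1.78 to 3.11. Col1a2 had at most 1 count in any library, Cd3e none, Col1a1 5 to 9 in CV and at most 2 in the others, and Des 14 to 29 in CV and at most 1 in the others. The epithelial gene Vil1 had 5120 to 17041 counts in every library. The part of other cells in the RNA differences was not tested.

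Members were 0.753% of all regions, which is the share to set beside those of the gene lists. For RNA, 30.2% of all transcripts tested were higher and 29.8% lower in CV than in ENR, and 41.2% and 35.2% than in EN. Of 32 Wnt targets and crypt stem cell genes, Cd44, Lef1 and Dkk2 were nearest to a member, with 4 members among 499 regions nearest to the list (0.802%), near the share over all regions. The list's RNA was higher in 7 and lower in 7 of 18 transcripts against ENR and higher in 18 of 18 against EN. Cd44, an adhesion receptor, had 147 ± 9.75 CPM in CV, 36.1 ± 3.15 in ENR and 4.59 ± 1.21 in EN. Its intronic member, with the Tcf/Lef letters printed above, scored 20, 23, 23 and 25 in ATAC in CV, 3 to 6 in ENR and 1 to 5 in EN, and 14, 31 and 20 in H3K27ac against 5 to 7 in ENR and 1 to 4 in EN (difference from EN 2.66, adjusted p = 0.0036 in limma). The member 1.06 kb upstream of Dkk2, a Wnt antagonist, scored 12 to 24 in CV and 1 to 6 elsewhere. Imprinted genes had 8 members, 3.74% of the 214 regions nearest to them, at 5 genes that included Peg3 and Plagl1, a growth-suppressing zinc finger gene. Of the 8, 4 lay within the 2.76 kb at Peg3, so the share rests in large part on 1 locus. Of 14 imprinted transcripts, 9 were higher and 2 lower in CV than in ENR, and 4 higher and 4 lower than in EN. The Plagl1 start site scored 41 to 56 in CV, 13 to 15 in ENR and 12 to 22 in EN. Neuronal genes had 7 members, 3.5% of 200 regions, of which 2 lay within 1.66 kb at Snap25. Of 13 transcripts of that list 3 were higher and 5 lower in CV than in ENR, and 2 higher and 5 lower than in EN. At the Snap25 start site H3K4me3 was 16, 15 and 20 in CV and 1 to 4 in every other library (2.96 from ENR, adjusted p = 0.011 in limma). The Yap and fetal-type list had 2 members, near Anxa1 and in Vgll3 (1.12% of 179 regions), and 5 of its 8 transcripts were higher than in ENR, among them Anxa1 with 140 ± 12.6 CPM in CV against 6.42 ± 0.739. The marker list for other cell types had 1 member, in Vim (1.72% of 58 regions), and 2 of its 7 transcripts tested were higher and 2 lower than in ENR. The Notch, germline and epithelial lineage lists had none among 170, 74 and 72 regions nearest to their genes. Of their transcripts, 0 of 6, 0 of 1 and 3 of 14 were higher in CV than in ENR, and 4, 0 and 10 were lower.

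Letters of known binding motifs were searched on both strands of the central 300 bp of each region, and their shares are descriptions. AP-1 letters (TGANTCA), bound by Jun and Fos, occurred in 31.1% of members, 24.8% of regions higher in CV and ENR than in EN, 13.7% of regions higher in ENR and EN than in CV, and 17.2% of all regions. Tcf/Lef letters (CTTTGAT) occurred in 11.1%, 10.8%, 7.10% and 5.57% in the same order, and both motifs together in 3.52%, 1.48%, 0.857% and 1.16%. CRE letters (TGACGTCA), bound by Creb and Atf factors, were rare at 2.39%, 0.437%, 0% and 0.528%, 17 members in all. CCAAT boxes (CCAATCA) occurred in 8.44% of members and 3.86% of all regions. By contrast, the letters of Hnf4 (CAAAGTCCA), the nuclear receptor family of enterocyte genes, occurred in 1.27%, 1.4%, 6.12% and 2.28% in the order given for AP-1. Tead letters (ACATTCCA) occurred in 1.27%, 2.97%, 6.00% and 1.92%. Members at start sites and elsewhere differed in these letters, AP-1 occurring in 6.87% and 36.6% and CCAAT boxes in 13% and 7.41%. Among regions with a mean CV ATAC score of at least 10 the AP-1 shares were 4.80% at start sites and 24.8% elsewhere. Gata, Cdx, Sox, Klf and Fox (TGTTTAC) letters occurred in 9.70%, 9.00%, 6.75%, 11.1% and 5.63% of members, and in 7.21%, 5.50%, 4.39%, 7.82% and 5.30% of all regions. In the regions higher in CV and ENR than in EN they occurred in 12.1%, 11.3%, 10.3%, 8.65% and 9.96%, above the members for all but Klf. For the neuronal repressor REST, the letters TCAGCACC, part of its site, occurred in 1.69% of members and 1.69% of all regions. The other letters searched occurred in 0 to 17.6% of members. They were Ets (CCGGAAGT), Runx (TGTGGTT), Nrf1 (GCGCATGC), Ctcf (AGGNGGCAG), Zfp57, Grhl (AACCGGTT), Irf (AANNGAAAC) and the E-boxes CAGCTG and CACGTG, with CAGCTG in 17.6% of members and 18.7% of all regions.

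**Figure D5:**
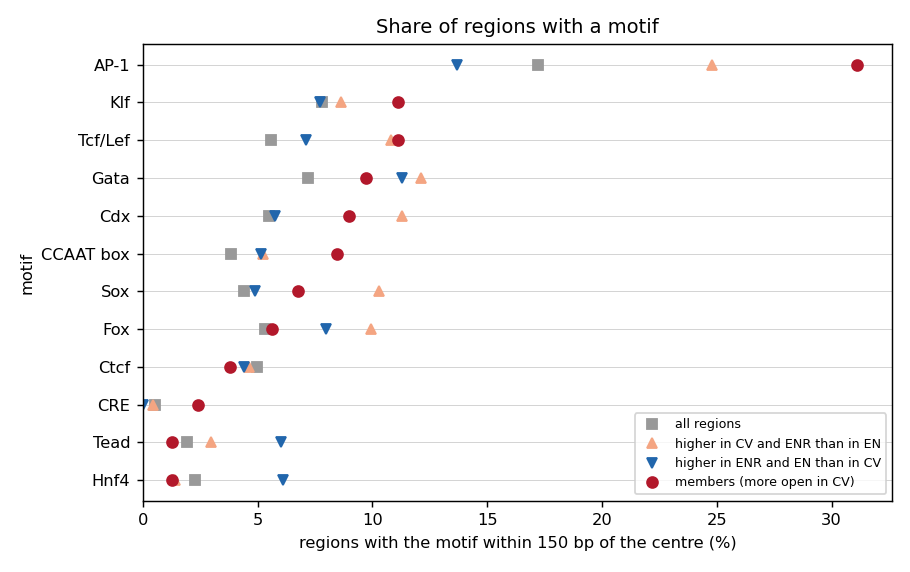
Share of regions, in percent, with the letters of a motif on either strand within 150 bp of the centre, for the members, for both other changed groups and for all regions. AP-1 shows the widest gap, at 31.1% of members and 17.2% of all regions, and Hnf4 and Tead letters are less common in the members than in the other 3 sets.

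Binding of Hnf4g itself was measured in 1 library per culture, without a replicate check. Of the reads within regions, 0.673% fell in the members in CV (568 of 84340 reads, 95% Wilson interval 0.620 to 0.731%), 0.545% in ENR (0.522 to 0.570%) and 0.339% in EN (0.331 to 0.348%). The intervals cover counting error only, as reads are not independent molecules. The members are 711 of 94469 regions, so that reads per member were 0.799 in CV against 0.893 per region over all, 2.70 against 3.73 in ENR and 8.67 against 19.2 in EN. In the 32043 regions with a mean CV ATAC score of at least 10, reads per region were 1.91, 7.71 and 45.6, above the members in each culture. The paper describes Hnf4g binding as nearly absent in CV, where 26.0% of members and 25.8% of all regions had a read. In the regions higher in ENR and EN than in CV, reads per region were 0.669, 4.15 and 24.0. In those higher in CV and ENR than in EN they were 0.74, 3.59 and 8.42, so the EN value was near that of the members.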

How the data were processed

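ATAC, H3K27ac, H3K4me3, H3K27me3, RNA and Hnf4g libraries of CV, ENR and EN organoids were grouped by their sample labels. The members, gene lists and motifs were chosen with earlier results of these data known. The ATAC and mark values are a score that the authors normalized and rounded for each union peak before they deposited it. Reads had been aligned to mm9 with BWA, duplicates removed with Picard, and peaks called with MACS2 2.0, those of H3K27me3 extended to 1000 bp. For Hnf4g the authors deposited raw read counts per region. The RNA values are expected counts that the authors estimated with kallisto (0.43.0 in the submitters' processing notes, another release in the study's methods) and deposited for 9481 transcripts and 92 spike-ins, and were rounded here. Another 24 columns of single samples were not used.

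Marks were compared on log2(score + 1) with limma 3.58.1 (eBayes with a trend) over regions above 0 in at least 3 of 9 libraries. RNA was compared with edgeR 4.0.16 (quasi-likelihood, TMM) over transcripts above 0 in at least 4 of 12 libraries, in R 4.3.3. P-values were adjusted by Benjamini-Hochberg over all features tested. Both scripts were tested on simulated data. Summed scores per library were 1752385 to 2109261 for ATAC, 1345873 to 1760511 for H3K27ac, 817265 to 1100967 for H3K4me3 and 1010511 to 1327017 for H3K27me3. Scores are not reads, so the depth behind them is unknown. RNA libraries held 5630977 to 8859757 counts. Among regions with a mean score above 10 in the assay, same-culture libraries had the same score in at most 7.71%, so none was a copy. Start sites and genes came from the GENCODE vM1 annotation of mm9, with 500 bp as the limit, and sequences from the mm9 reference.

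Regions named were the 10 with the largest ATAC ratio, the 10 with the largest H3K27ac rise among those called against both cultures, those at genes of the lists, the 5 highest in CV, and 2 on either side of the ratio limit. Genes named were those nearest to these regions, and the 10 largest RNA rises and 5 largest falls called against both cultures without overlap of libraries. Alternatives were other normalization, filters, pseudocounts, thresholds, DESeq2 1.42.0, a replicate block and each library left out. A few items that these rules name are not reported here.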

Additional observations from a re-analysis of the deposited data

Results flagged for a closer look

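In 19 of 217 groups of 4 libraries examined, 8.76%, the gap of the highest or lowest library to its nearest neighbour exceeded Dixon's critical share of the group's range, which chance exceeds in about 1 of 20 groups. Most were groups of low, tied values. The gap was 1.0 of the range for ATAC in EN at the Zfp503 start site (2 against 3 in the others), and in ENR at Lef1 (3 against 4), at the Peg3 start site (1 against 2), at the next Peg3 member (25 against 18) and upstream of Snap25 (6 against 7). It was also 1.0 for RNA of Hspb1 in ENR, of Fn1 and of Lef1 in both ENR and EN, each with 1 count in a single library, and of an Agpat4 transcript in EN (1.74 CPM against 0). ATAC in EN gave 0.833 in Vgll3 (9 against 3 to 4) and 0.867 at Schip1 (40 against 25 to 27). RNA gave 0.83 for Fbln2 in EN, 0.875 for Cd44 in EN (2.78 against 5.04 to 5.36 CPM), 0.856 for Trim2 in ENR (282 against 299 to 302 CPM), 0.937 for Rasal1 in CV (15.6 against 21.8 to 22.2 CPM) and 0.877 for Zfp462 in ENR (1.97 against 2.78 to 2.89 CPM). The share of the ATAC score in the regions more open in CV gave 0.833 in CV, with 1 library at 1.07% and the others at 1.12 to 1.13%.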

How the results depend on the processing

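Every member called higher in H3K27ac or H3K4me3, or lower in H3K27me3, kept its direction under every alternative run. The 1 member called lower in H3K4me3 than in EN was not followed. The count of H3K27ac rises over ENR was 0 with no trend, 7 with quantile normalization and 0 at an adjusted p under 0.001, and over EN 17, 47 and 5. The count of H3K4me3 rises over ENR was 7 with quantile normalization and 0 at 0.001, and over EN 0 at 0.001. The count of H3K27me3 falls against ENR was 19 with no trend and 16 at 0.001, and against EN 0 and 2. Scaling to the spike-ins gave 73 transcripts higher than in ENR and 21 lower than in EN, and reversed Jakmip1 (0.05) against EN. The rule gave 1304 members at a ratio of 2, 178 at a ratio of 4 and 344 at a mean CV score of 20. With 1 library left out, the count of H3K27ac rises was 7 to 26 against ENR and 21 to 64 against EN, that of H3K4me3 rises 0 to 110 and 30 to 130, and that of H3K27me3 falls 27 to 85 and 4 to 24. RNA counts were 109 to 114 and 120 to 125 higher and 38 to 43 and 55 to 60 lower, and 672 to 755 members met the rule. The cause of these changes was not tested. Values of single regions and genes under alternatives were pooled with the counts of start-site genes called in RNA. Of these, 1606 kept direction and call or, for a count, stayed close to the main one. Another 220 lost the call, 1 reversed and 1, a count, moved. The depth behind the scores is unknown, so that low scores limit single calls.

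Replicate numbers did not pair the libraries, whose deviations correlated between -0.081 and 0.131. The replicate block gave 30 and 72 rises in H3K27ac, 57 and 101 in H3K4me3, 64 and 22 falls in H3K27me3, and 114 and 122 transcripts higher and 42 and 59 lower in RNA. An alternative with every library of a mark could not be run, because the 9 libraries per mark in use were all that had a column.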
